A study of Mus musculus with 6 samples.

Results

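The 39 genes described here encode the proteins that unwind, prime and copy DNA at the replication fork, and the enzymes that supply its nucleotides. They were chosen by symbol, and all 39 were present among the 23889 gene symbols that each of the 3 deposited tables listed. Their messenger RNA was followed in 6 mouse libraries. AG-haESCs are androgenetic haploid embryonic stem cells, grown from embryos whose only nuclear genome came from a sperm head placed in an oocyte without its spindle. The 3 AG-haESC libraries were 1 each of the lines A129-2, AOS-14 and AOS-16, of the strain labelled F1 hybrid C57BL/6 X DBA/2, grown on feeders in medium with serum replacement and 2i, and sorted as haploid G0/G1 cells after Hoechst staining. The single round sperm library carried the same strain label, the cell type label sperm, and the same text on culture and sorting. The 2 ESC XX libraries came from cells of an Oct-GFP (C57) background, kept in fetal bovine serum, LIF, added nucleosides and 2i, and collected after feeder removal, with no sort named. The 2i supplement blocks the kinases MEK and GSK3. Strain, medium, sort and ploidy therefore differed together between AG-haESCs and ESC XX and cannot be told apart. No label says that the ESC XX libraries were separate cultures, and 1 library stood for each AG-haESC line.

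Replication starts where the origin recognition complex, with CDC6 and CDT1, loads rings of MCM2 to MCM7 onto DNA in G1. CDC45 and the GINS complex then turn the ring into the active helicase, primase and polymerase alpha start each strand, and polymerases delta and epsilon extend it on the PCNA clamp that replication factor C loads. E2F factors are known to drive many of these genes as cells enter S phase. Pluripotent cells divide fast with a short G1, whereas round spermatids have left the cycle after meiosis and copy no more DNA.

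The estimated depth, in units of 1e6 fragments, was 9.10 to 19.7 for AG-haESCs, 10.8 for round sperm, and 16.4 and 18.8 for ESC XX. Values are FPKM, fragments scaled to transcript length and library depth, so levels can be compared between genes per length. The pluripotency markers summed to 4130 to 5439 FPKM in AG-haESCs, 251 FPKM in round sperm, and 3989 and 4042 FPKM in ESC XX. The 8 spermatid markers summed to 0.104 to 1.94 FPKM in AG-haESCs, 38565 FPKM in round sperm, and 0.294 and 0.384 FPKM in ESC XX. The defining markers thus stood where the labels placed them. Markers of spermatocytes, the meiotic germ cells, summed to 37.0 to 62.4 FPKM in AG-haESCs and 407 FPKM in round sperm. Markers of feeder fibroblasts summed to 144.2 to 204.5 FPKM in AG-haESCs and 12.6 FPKM in round sperm. The 7 proliferation markers summed to 171 to 301.4 FPKM in AG-haESCs and 399 FPKM in round sperm, which lay above every line as deposited and below every line once rescaled. The part of any of these lists in the comparisons of replication genes was not tested. The deposited FPKM of round sperm added up to 1239225, against 509359 to 707325 in AG-haESCs. The median gene therefore differed by -0.49 on the log2 scale between AG-haESCs and round sperm as deposited, and by 0.40 once all libraries were rescaled to the same total.

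Promoter sequences are shown because E2F letters were frequent among these genes. RefSeq windows on GRCm38.p6, from 250 bases before to 50 bases after each gene start, were found for 31 of the 39 genes. The E2F letters TTTCCCGC, TTTGGCGC, TTTCGCGC or TTTGCCGC, on either strand and counted also where they overlap, occurred in windows of 13 of the 31 genes (41.9%), against 704 of 27025 genes (2.6%) in the whole table. The CCAAT letters occurred in 20 of the 31 (64.5%) and in 41.1% of all genes. The letters TTTGAA, of the cell cycle homology region, occurred in 4 of the 31 (12.9%) and in 20.2% of all genes. Of 19 E2F matches, 10 began before the gene start, and in 6 genes (Cdt1, Lig1, Mcm3, Mcm8, Pold1 and Pole2) all matches lay after it. A match is a run of letters and not a measured binding site. The lines that follow give the 180 bases just before the start, 5′ to 3′ on the strand of the gene, with the E2F letters in capitals. Mcm6 lies at chr1:128359706-128359885 (minus strand), Mcm5 at chr8:75109329-75109508 (plus strand), Cdc6 at chr11:98907971-98908150 (plus strand) and Gins3 at chr8:95633379-95633558 (plus strand). Pola1 lies at chrX:93632156-93632335 (minus strand) and the upstream of the Mcm7 starts at chr5:138171884-138172063 (minus strand). Rpa1 at chr11:75348384-75348563 (minus strand) and Rfc1 at chr5:65335640-65335819 (minus strand) are shown because they have no match and were lower in AG-haESCs as deposited. Their lower calls were lost under the 3 scalings given further on. Genes called higher can lack a match too. Those not printed for this reason were Mcm2, Mcm10, Rfc5, Prim1, Rpa2, Rpa3, Rrm2, Tyms and Tk1.
Mcm6: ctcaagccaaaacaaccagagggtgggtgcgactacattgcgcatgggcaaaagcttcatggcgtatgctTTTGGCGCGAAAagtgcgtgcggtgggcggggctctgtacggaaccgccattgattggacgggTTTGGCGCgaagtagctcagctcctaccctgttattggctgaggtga
Mcm5: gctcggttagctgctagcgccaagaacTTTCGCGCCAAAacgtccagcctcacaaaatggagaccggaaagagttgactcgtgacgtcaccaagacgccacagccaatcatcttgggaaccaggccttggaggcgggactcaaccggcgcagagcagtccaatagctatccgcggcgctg
Cdc6: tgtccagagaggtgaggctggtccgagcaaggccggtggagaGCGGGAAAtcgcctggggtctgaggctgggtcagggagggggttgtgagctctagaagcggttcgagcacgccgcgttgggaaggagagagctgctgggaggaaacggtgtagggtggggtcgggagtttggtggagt
Gins3: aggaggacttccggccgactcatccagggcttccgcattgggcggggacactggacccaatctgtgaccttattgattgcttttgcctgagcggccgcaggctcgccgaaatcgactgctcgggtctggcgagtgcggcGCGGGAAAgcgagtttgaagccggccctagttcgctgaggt
Pola1: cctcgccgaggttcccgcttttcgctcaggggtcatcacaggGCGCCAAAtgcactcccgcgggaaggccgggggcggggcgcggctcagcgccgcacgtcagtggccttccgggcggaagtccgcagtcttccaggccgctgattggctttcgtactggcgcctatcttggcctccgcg
Mcm7: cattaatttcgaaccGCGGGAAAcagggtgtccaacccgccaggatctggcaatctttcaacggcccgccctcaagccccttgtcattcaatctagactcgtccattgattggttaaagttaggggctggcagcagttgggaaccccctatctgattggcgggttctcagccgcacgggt
Rpa1: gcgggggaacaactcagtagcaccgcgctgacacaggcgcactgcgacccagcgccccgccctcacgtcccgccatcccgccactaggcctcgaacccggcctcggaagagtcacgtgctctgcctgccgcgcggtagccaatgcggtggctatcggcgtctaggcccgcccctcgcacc
Rfc1: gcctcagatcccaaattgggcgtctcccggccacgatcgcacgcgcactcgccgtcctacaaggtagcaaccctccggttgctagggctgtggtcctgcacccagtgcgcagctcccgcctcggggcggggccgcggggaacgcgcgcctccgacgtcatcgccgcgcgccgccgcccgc
The run of capitals in Mcm5, and the first run in Mcm6, each hold 2 matches on opposite strands that overlap, and Mcm6 has a further match nearer to the start. Among the genes called higher in AG-haESCs than in round sperm, 9 of 18 with a window held the E2F letters (50%), and among the other genes 4 of 13 (30.8%). Those 4 were Mcm7, Mcm8, Pole2 and Rfc3. The difference between these shares was not tested.

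**Figure D1:**
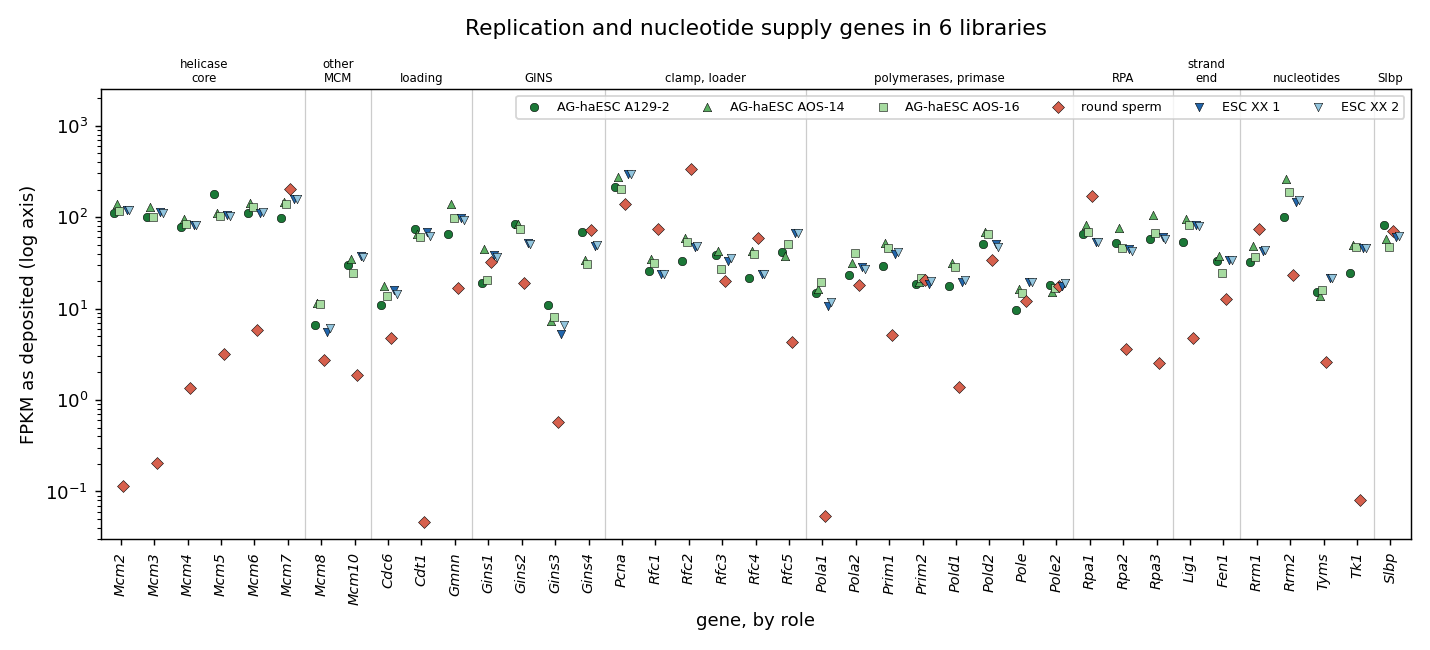
FPKM as deposited (log axis) of the 39 genes, ordered by role, with 1 point per library. The AG-haESC lines and ESC XX lie close together for most genes, whereas round sperm spreads from 0.0461 FPKM for Cdt1 to 333 FPKM for Rfc2.

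AG-haESCs held many replication genes, among them the helicase subunits Mcm2 to Mcm6, at a far higher level than round sperm, but not all. By limma with Benjamini-Hochberg adjustment over the 15938 genes tested, and with a log2 difference of at least 1, 21 of the 39 genes (53.8%) were higher in AG-haESCs, against 22.8% of all genes tested. In the other direction 3 of the 39 (7.69%) were lower in AG-haESCs, Rfc1, Rfc2 and Rpa1, against 39.1% of all genes tested. The remaining 15 were not called. The 39 genes had a median difference of 2.01, or 2.51 more than the median gene tested. With libraries rescaled to the same total, 28 were higher and 1 was lower, against 30.5% and 28.1% of all genes. The 7 gained were Mcm8, Pcna, Rfc3, Pola2, Pold2, Pole and Fen1. With quantile normalization, 27 were higher and 0 were lower by limma, against 29.9% and 28.7%, and 0 were lower at an unadjusted p under 0.05 as well. The 6 gained there were Mcm7, Mcm8, Pcna, Rfc3, Pold2 and Fen1. All 21 genes called higher stayed so under each of the 3 scalings tried, whereas 0 of the 3 lower calls held under all of them. The p-values measure the spread between the 3 lines, and the lone round sperm library was assumed to vary like them. In these bulk samples, fewer cells of a type and less RNA per cell cannot be told apart.

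Leaving out single lines changed the counts, among these genes and over all genes tested. Of all genes tested, 15.6% were called higher and 34% lower without AOS-14, and 16.7% and 33.3% without AOS-16. The shares without A129-2 were 22% and 37.7%, against 22.8% and 39.1% with all lines. Without AOS-14, 15 genes were called higher and 1 lower. Cdc6, Gmnn, Prim1, Pold1, Rrm2 and Tk1 lost their higher call, and Rfc1 and Rfc2 their lower call. Without AOS-16, limma called 15 higher and 0 lower (1 lower at an unadjusted p under 0.05), and Cdc6, Gmnn, Gins3, Prim1, Pold1, Lig1 and Rrm2 lost their higher call, and Rfc1, Rfc2 and Rpa1 their lower call. Fen1 gained a higher call without AOS-16. Without A129-2, 22 were higher and 3 lower, with Mcm8 gained among the higher and Gins4 in place of Rpa1 among the lower. The genes called higher under every one of the 8 alternatives were 13, namely Mcm2 to Mcm6, Mcm10, Cdt1, Gins2, Rfc5, Pola1, Rpa2, Rpa3 and Tyms.

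**Figure D2:**
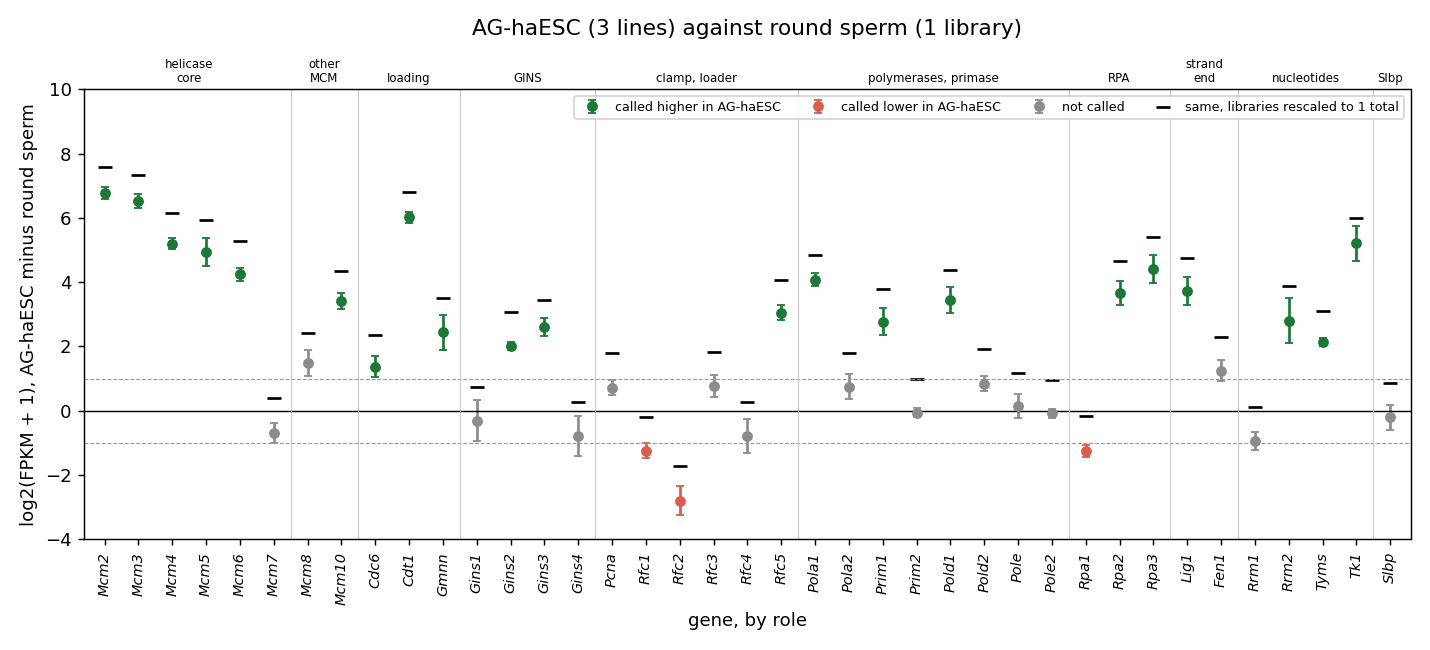
Difference of log2(FPKM + 1) between AG-haESCs (3 lines) and round sperm (1 library) for the 39 genes, with bars of 1 standard error from limma and dashed lines at -1 and 1. Short black lines give the value after libraries were rescaled to the same total, where Rfc2 alone stays below -1.

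The helicase core split into 5 genes that were low in round sperm and 1 that was not. Mcm2 had 110.4, 139 and 115 FPKM in A129-2, AOS-14 and AOS-16, 0.116 FPKM in round sperm, and 118 and 119 FPKM in ESC XX. Mcm3 had 101, 130.5 and 99.6 FPKM in the AG-haESC lines, 0.205 FPKM in round sperm, and 112 and 112 FPKM in ESC XX. Mcm7 had 98.8, 145 and 141 FPKM in the AG-haESC lines, 204 FPKM in round sperm, and 159 and 159 FPKM in ESC XX. Round sperm was thus below every other library for Mcm2 and Mcm3. For Mcm7 it was above every other library as deposited, but below every AG-haESC line once rescaled, at 194, 205 and 258 TPM in the lines and 165 TPM in round sperm. Mcm4 averaged 85.8 ± 8.96 FPKM in AG-haESCs (SD, n = 3), against 1.35 FPKM in round sperm. Mcm5 averaged 130.5 ± 41.8 FPKM in AG-haESCs, against 3.16 FPKM in round sperm. Mcm6 averaged 128.9 ± 16.3 FPKM in AG-haESCs, against 5.81 FPKM in round sperm. All of Mcm2 to Mcm6 were called higher in AG-haESCs, with log2 differences of 4.25 (Mcm6) to 6.77 (Mcm2) by limma.

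The level of the highest of the 6 core genes was 1.52 to 2.31 times that of the lowest in the AG-haESC lines, 1766 times in round sperm, and 1.97 and 1.96 times in ESC XX. The lowest in round sperm was Mcm2, whose value corresponds to only about 4.13 fragments by the estimated depth, so the size of that ratio is uncertain. Mcm7 differed by -0.69 ± 0.31 between AG-haESCs and round sperm (log2, standard error; limma adjusted p = 0.152), and by 0.39 after rescaling. With quantile normalization it was called higher in AG-haESCs, at 1.09 (limma adjusted p = 0.0356). Its transcript shares ground with genes on the opposite strand, and the use of strand in counting is not given in the sources used here. One of them, Cops6, a subunit of the COP9 signalosome, had 98.7, 142 and 117 FPKM in the AG-haESC lines and 225 FPKM in round sperm. The other, Ap4m1, an adaptor complex subunit, had 6.07 to 12.2 FPKM in AG-haESCs and 67.4 FPKM in round sperm. How far their reads entered the value of Mcm7 was not tested. The window of the upstream Mcm7 start, printed in part above, holds E2F letters, and that of its other start does not. Among the core genes low in round sperm, Mcm5 and Mcm6 hold them before the start and Mcm3 only after it. Mcm2 has no match, and Mcm4 had no window.

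The mRNAs of Mcm8, Mcm10 and the loading factors were lower in round sperm than in every AG-haESC line. Mcm10, which helps to activate the helicase, had 29.7, 34.4 and 24.5 FPKM in the AG-haESC lines, 1.87 FPKM in round sperm, and 38.0 and 36.7 FPKM in ESC XX. Cdt1, which brings the MCM ring to the origin, had 74.2, 66.1 and 59.9 FPKM in the AG-haESC lines, 0.0461 FPKM in round sperm, and 68.5 and 62.9 FPKM in ESC XX. The round sperm value of Cdt1 corresponds to about 1.25 fragments by the estimated depth. Gmnn, which encodes geminin, the inhibitor of CDT1, had 65.3, 139.6 and 97.6 FPKM in the AG-haESC lines, 16.9 FPKM in round sperm, and 96.9 and 92.1 FPKM in ESC XX. Round sperm therefore kept a low level of the inhibitor's mRNA and almost none of its target's. Cdc6, which works with CDT1 in loading, averaged 14.1 ± 3.36 FPKM in AG-haESCs, against 4.76 FPKM in round sperm. The log2 differences were 3.40 ± 0.25 for Mcm10 (limma adjusted p = 0.00414), 6.01 ± 0.17 for Cdt1 (0.000665), 2.44 ± 0.54 for Gmnn (0.0387) and 1.37 ± 0.33 for Cdc6 (0.0456). The call of Cdc6 was lost with no filter on low values (limma adjusted p = 0.0534). Mcm8, which acts in meiotic and other recombination, had 6.66 to 11.4 FPKM in AG-haESCs and 2.76 FPKM in round sperm and was not called (1.49 ± 0.40, limma adjusted p = 0.0581), although the round sperm library lay below every line. Mcm9, of the wider list described further on and named after its values were seen, was not called. It had 2.45 to 2.89 FPKM in AG-haESCs and 4.67 FPKM in round sperm. Its log2 difference was -0.66 as deposited and 0.19 after rescaling.

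The 4 subunits of the GINS complex gave different results, with 2 called higher in AG-haESCs and 2 not called. Gins2 had 83.2, 83.7 and 74.0 FPKM in the AG-haESC lines, 19.1 FPKM in round sperm, and 52.4 and 50.9 FPKM in ESC XX. Gins3 had 10.98, 7.22 and 8.11 FPKM in the AG-haESC lines, 0.581 FPKM in round sperm, and 5.26 and 6.53 FPKM in ESC XX. Gins4 had 69.6, 33.6 and 30.7 FPKM in the AG-haESC lines, 72.7 FPKM in round sperm, and 48.4 and 49.6 FPKM in ESC XX. Gins2 and Gins3 were called higher in AG-haESCs, with log2 differences of 2.01 ± 0.13 (limma adjusted p = 0.00309) and 2.61 ± 0.29 (0.00944). Gins4 differed by -0.79 ± 0.63 (limma adjusted p = 0.346), with 1 AG-haESC line close to round sperm. Gins1 spanned 18.9 to 44.3 FPKM in AG-haESCs, and the 32.3 FPKM of round sperm lay within that range. The ratio of Gins4 to Gins3 was 3.78 to 6.34 in the AG-haESC lines, 125 in round sperm, and 9.20 and 7.60 in ESC XX.

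The clamp loader, a complex of 5 subunits, held genes called in both directions, and with Rfc2 the highest round sperm value of the 39 genes. Rfc2, the small subunit that reached the highest level, had 32.8, 58.9 and 53.6 FPKM in the AG-haESC lines, 333 FPKM in round sperm, and 47.1 and 48.2 FPKM in ESC XX. Rfc5, another small subunit, had 41.7, 37.6 and 50.8 FPKM in the AG-haESC lines, 4.32 FPKM in round sperm, and 66.7 and 66.3 FPKM in ESC XX. Rfc1, the large subunit, had 25.7, 35.2 and 31.1 FPKM in the AG-haESC lines, 73.7 FPKM in round sperm, and 23.7 and 24 FPKM in ESC XX. Rfc2 and Rfc1 were thus highest in round sperm and Rfc5 was lowest there. Rfc2 differed by -2.80 ± 0.44 between AG-haESCs and round sperm (log2, limma adjusted p = 0.0195), and remained called lower after rescaling at -1.72 (limma adjusted p = 0.026), but not with quantile normalization at -1.05 (limma adjusted p = 0.122). It also lost the call without AOS-14, at -2.96 (limma adjusted p = 0.0668), and without AOS-16, at -2.89 (limma adjusted p = 0.076). The lower call of Rfc1 in AG-haESCs, -1.25 ± 0.23 (limma adjusted p = 0.0269), was lost under all 3 scalings and turned to 0.19 with quantile normalization. Rfc5 was called higher at 3.05 ± 0.23 (limma adjusted p = 0.00439). Lat2, which overlaps Rfc2 on the opposite strand, had 0.458 to 1.27 FPKM in AG-haESCs and 2.82 FPKM in round sperm, far under the values of Rfc2. The ratio of Rfc2 to Rfc5 was 0.787, 1.57 and 1.05 in the AG-haESC lines, 77.0 in round sperm, and 0.707 and 0.728 in ESC XX.

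Rfc3 and Rfc4, the remaining loader subunits, were not called, with 26.8 to 42.3 and 21.7 to 43.1 FPKM in AG-haESCs against 20.2 and 58.8 FPKM in round sperm. Rfc4 overlaps Eif4a2, a translation factor on the opposite strand with 272 to 393 FPKM in AG-haESCs and 39.1 FPKM in round sperm, and its part in the value of Rfc4 was not tested. Pcna, the sliding clamp itself, had 213, 277 and 204 FPKM in the AG-haESC lines, 138 FPKM in round sperm, and 292 and 299 FPKM in ESC XX. It was the highest of the 39 genes in every library other than round sperm, and it was not called (0.72 ± 0.25, limma adjusted p = 0.0928). Pcna has annotated pseudogenes, so its value may hold reads that could also be placed there.

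Polymerase alpha and its primase split by subunit as well. Pola1, the catalytic subunit and the single X-linked gene of the set, had 14.7, 16.4 and 19.5 FPKM in the AG-haESC lines, 0.0534 FPKM in round sperm, and 10.6 and 11.8 FPKM in ESC XX. The round sperm value corresponds to about 2.98 fragments. Pola2, the accessory subunit, had 23.5, 31.1 and 40.8 FPKM in the AG-haESC lines, 18.1 FPKM in round sperm, and 28.2 and 27.0 FPKM in ESC XX. Pola1 was called higher in AG-haESCs at 4.08 ± 0.21 (log2, limma adjusted p = 0.00217), whereas Pola2 was not called (0.74 ± 0.39, limma adjusted p = 0.194). Prim1, the primase catalytic subunit, averaged 42.3 ± 11.8 FPKM in AG-haESCs, against 5.17 FPKM in round sperm, and was called higher at 2.77 ± 0.43 (limma adjusted p = 0.0186). Prim2, its partner subunit, had 18.4 to 21.8 FPKM in AG-haESCs and 20.7 FPKM in round sperm, which lay within the range of the lines. In both pairs the catalytic subunit was called and its partner was not, although Pola2 was called higher too once libraries were rescaled. The difference between subunits was not tested.

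The subunits of polymerase delta differed in their calls. Pold1, the catalytic subunit, had 17.8, 31.1 and 28.1 FPKM in the AG-haESC lines, 1.39 FPKM in round sperm, and 19.7 and 20.3 FPKM in ESC XX. Pold2, the accessory subunit, had 51.4, 68.9 and 64.9 FPKM in the AG-haESC lines, 33.8 FPKM in round sperm, and 50.9 and 47.0 FPKM in ESC XX. Pold1 was called higher at 3.44 ± 0.41 (log2, limma adjusted p = 0.0111) and Pold2 was not called (0.84 ± 0.23, limma adjusted p = 0.0595), but was after rescaling. Of the small subunits, named here after their values were seen, Pold4 was called higher in AG-haESCs at 1.60 (limma adjusted p = 0.0157), a call lost without AOS-14 or AOS-16, and Pold3 is among the lower genes of the wider list described further on. Of polymerase epsilon neither Pole nor Pole2 was called as deposited, and Pole was called higher after rescaling. Pole, its catalytic subunit, had 9.74 to 16.4 FPKM in AG-haESCs and 12.0 FPKM in round sperm. Pole2 had 15.1 to 18.2 FPKM in AG-haESCs and 17.8 FPKM in round sperm, so as deposited round sperm lay within the lines for both. Of the small subunits, also named after their values were seen, Pole4 was called higher in AG-haESCs at 2.74 (limma adjusted p = 0.0102) with each line left out as well, and Pole3 was called lower.

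The single-strand binding protein RPA is a trimer, and its largest subunit stood apart. Rpa1 had 64.6, 81.2 and 68.3 FPKM in the AG-haESC lines, 170.3 FPKM in round sperm, and 53.8 and 53.0 FPKM in ESC XX. Rpa2 had 51.9, 76.9 and 46.4 FPKM in the AG-haESC lines, 3.60 FPKM in round sperm, and 45.0 and 42.9 FPKM in ESC XX. Rpa3 had 57.8, 106 and 66.4 FPKM in the AG-haESC lines, 2.53 FPKM in round sperm, and 60.3 and 57.5 FPKM in ESC XX. Round sperm lay outside all other libraries for each of the 3 genes, highest for Rpa1 and lowest for Rpa2 and Rpa3. AG-haESCs and ESC XX overlapped for Rpa3 as deposited. Rpa2 and Rpa3 were called higher in AG-haESCs at 3.66 ± 0.38 (log2, limma adjusted p = 0.00829) and 4.41 ± 0.45 (0.00804). Rpa1 was called lower in AG-haESCs at -1.25 ± 0.19 (limma adjusted p = 0.017), a call lost under all 3 scalings and turned to 0.52 with quantile normalization. The ratio of Rpa1 to Rpa2 as deposited, which rescaling a library to another total leaves as it is, was 1.24, 1.06 and 1.47 in the AG-haESC lines, 47.3 in round sperm, and 1.20 and 1.23 in ESC XX.

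Lig1, the ligase that joins Okazaki fragments, had 53.3, 95.3 and 82.7 FPKM in the AG-haESC lines, 4.72 FPKM in round sperm, and 81.5 and 79.1 FPKM in ESC XX. It was called higher in AG-haESCs at 3.73 ± 0.43 (log2, limma adjusted p = 0.0103). Fen1, the nuclease that trims the fragments before ligation, had 24.4 to 37.7 FPKM in AG-haESCs and 12.6 FPKM in round sperm and missed the threshold (1.25 ± 0.32, limma adjusted p = 0.0516). Round sperm lay below every line for both genes. Fen1 overlaps Tmem258 on the opposite strand, which had 251 to 353 FPKM in AG-haESCs and 784 FPKM in round sperm, and its part in the value of Fen1 was not tested.

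Among the genes of nucleotide supply, 3 were higher in AG-haESCs and Rrm1 was not called. Ribonucleotide reductase makes deoxynucleotides from a large subunit, RRM1, and a small one, RRM2, which is known to be limited to dividing cells. Rrm2 had 99.6, 259.8 and 189 FPKM in the AG-haESC lines, 23.5 FPKM in round sperm, and 147 and 154 FPKM in ESC XX. Rrm1 had 32.4, 48.2 and 36.6 FPKM in the AG-haESC lines, 74.9 FPKM in round sperm, and 42.4 and 44.2 FPKM in ESC XX. Round sperm had the least Rrm2 of all libraries and, as deposited, the most Rrm1. Rescaled, its 60.4 TPM of Rrm1 lay just under the 63.6, 68.2 and 66.9 TPM of the AG-haESC lines. The ratio of Rrm1 to Rrm2 was 0.186 to 0.326 in AG-haESCs, 3.19 in round sperm, and 0.289 and 0.287 in ESC XX. Rrm2 was called higher in AG-haESCs at 2.80 ± 0.69 (log2, limma adjusted p = 0.0486), and the call was lost with no filter on low values.

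Tk1, the thymidine kinase of dividing cells, had 24.7, 49.9 and 47.7 FPKM in the AG-haESC lines, 0.0808 FPKM in round sperm, and 46.1 and 46.2 FPKM in ESC XX. The round sperm value corresponds to about 2.00 fragments. Tyms, which makes thymidylate, had 15.1, 13.7 and 15.8 FPKM in the AG-haESC lines, 2.60 FPKM in round sperm, and 21.4 and 21.4 FPKM in ESC XX. They were called higher in AG-haESCs than in round sperm at 5.21 ± 0.55 (log2, limma adjusted p = 0.00855) and 2.14 ± 0.13 (0.00292). Tyms has an annotated pseudogene. Slbp, which binds the stem-loop of histone mRNA, had 47.7 to 82.8 FPKM in AG-haESCs and 71.1 FPKM in round sperm, which lay within the lines as deposited.

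Counted over the set as deposited, round sperm lay below all 3 AG-haESC lines for 27 genes (69.2%), against 39.3% of all genes tested, and above all 3 for 7 (17.9%), against 51.6%. It lay within their range for 5. Rescaled, it lay below all 3 for 34 genes (87.2%), against 49.1% of all genes tested, and above for Rfc1, Rfc2 and Rpa1 (7.69%), against 40.7%. Gins4 and Rfc4 lay within. Round sperm held 6 of the genes under 1 FPKM (Mcm2, Mcm3, Cdt1, Gins3, Pola1 and Tk1), and 9 at 50 FPKM or more. Of all 23889 symbols, 12515 had at least 1 FPKM in round sperm, and the share at 50 FPKM or more is not given here. The 39 genes made up 0.392% to 0.420% of the FPKM total in AG-haESCs, 0.119% in round sperm, and 0.461% in both ESC XX libraries. For the genes near 0 in round sperm the size of the log2 difference follows the value added before the logarithm. With 0.1 in place of 1, Mcm2 moved to 9.13, Cdt1 to 8.83, Tk1 to 7.75 and Pola1 to 6.78. The comparisons with ESC XX share the AG-haESC or the round sperm libraries with this one. For ESC XX, libraries were rescaled to the same total and centred on the median gene. Round sperm then lay below both ESC XX libraries, and at least 1 log2 unit below their mean, for 28 of the 39 genes (71.8%). This compares with 38.2% of all genes kept. It lay above by the same rule for 1, Rfc2, against 39.2%. With FPKM as deposited and no median removed, 23 genes lay below, and the share of all genes at that setting is not given here.

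AG-haESCs and ESC XX differed by less than 1 log2 unit in each of the 39 genes. Libraries were rescaled to the same total (TPM) and centred on the median gene, and a gene counted when its group means lay 1 or more log2 units apart with no overlap between libraries. By this rule 0 of the 39 genes were higher in AG-haESCs and 0 were lower, against 7.37% and 8.28% of the 13172 genes kept. No test was run, because the tables were scaled separately. The differences ran from -0.72 for Rfc5 to 0.57 for Mcm8, with a median of -0.07. Taken line by line, the median stood at -0.01 for A129-2, -0.15 for AOS-14 and 0.04 for AOS-16.

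**Figure D3:**
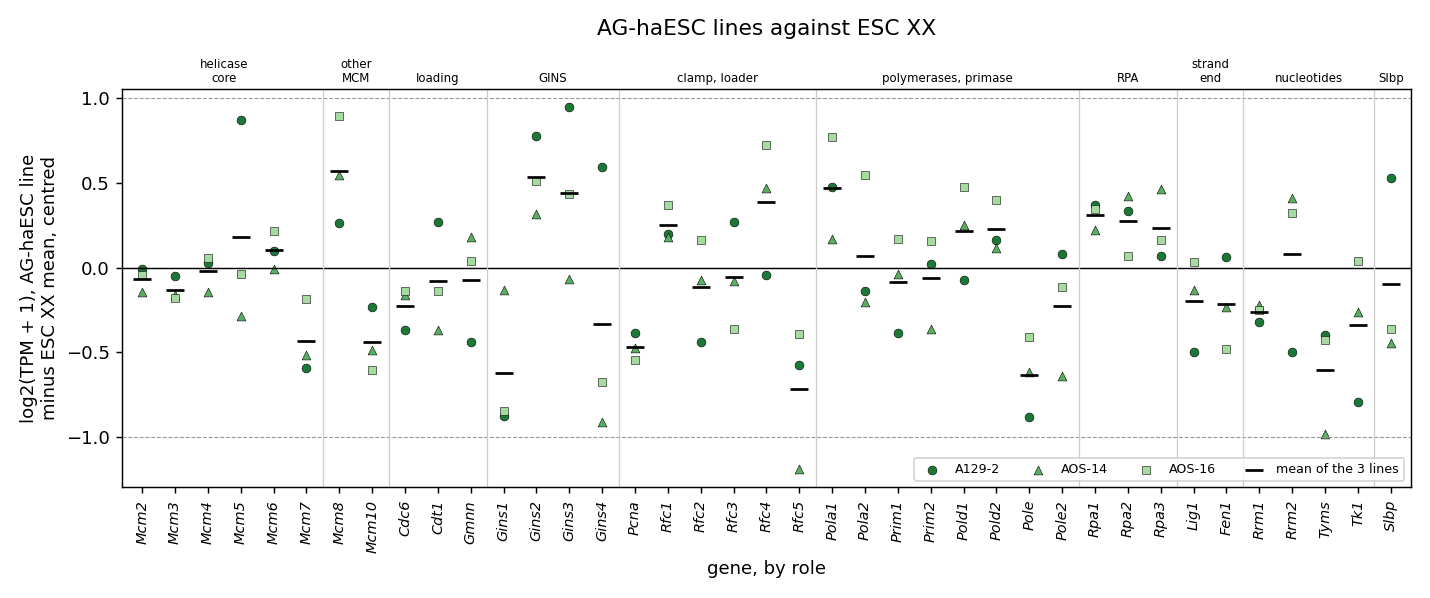
Difference of log2(TPM + 1) between each AG-haESC line and the mean of the ESC XX libraries for the 39 genes, centred on the median gene, with the mean of the 3 lines as a short black line and dashed lines at -1 and 1. Means run from -0.72 for Rfc5 to 0.57 for Mcm8.

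At any size, 8 genes lay above both ESC XX libraries in all 3 lines (20.5%), against 24.9% of all genes kept, and 11 lay below both (28.2%), against 25.7%. The 8 were Mcm8, Gins2, Rfc1, Pola1, Pold2, Rpa1, Rpa2 and Rpa3, so the 3 RPA subunits were among them. Rpa1 had 127, 115 and 125 TPM in the AG-haESC lines, against 106 and 104 TPM in ESC XX. Rpa2 had 102, 109 and 84.9 TPM in the AG-haESC lines, against 88.6 and 84.6 TPM in ESC XX and lay above both in every line only after centring. Gins2 had 163, 118 and 135 TPM in the AG-haESC lines, against 103 and 100.3 TPM in ESC XX. These shares were near those of all genes.

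The 11 genes below both ESC XX libraries were Mcm2, Mcm3, Mcm7, Mcm10, Cdc6, Gins1, Pcna, Rfc5, Pole, Rrm1 and Tyms. Pcna had 417, 391 and 372 TPM in the AG-haESC lines, against 576 and 589.7 TPM in ESC XX. Pole had 19.1, 23.2 and 26.9 TPM in the AG-haESC lines, against 38.8 and 38.5 TPM in ESC XX. Rfc5 had 81.8, 53.1 and 93.0 TPM in the AG-haESC lines, against 131 and 131 TPM in ESC XX. Tyms had 29.6, 19.4 and 29.0 TPM in the AG-haESC lines, against 42.1 and 42.2 TPM in ESC XX. Every AG-haESC line lay below ESC XX for these 4, and the mean of the lines by less than 1 log2 unit, although Rfc5 in AOS-14 taken alone stood at -1.19. The proliferation markers (Mki67, Top2a, Ccnb1, Cdk1, Bub1, Plk1 and Aurkb) differed by more, with a median of -1.30 and 5 of 7 counted lower in AG-haESCs, and summed to 171 to 301.4 FPKM in AG-haESCs and 449.5 and 450.4 FPKM in ESC XX. The 9 feeder fibroblast markers summed to 144.2 to 204.5 FPKM in AG-haESCs and 1207 and 1204 FPKM in ESC XX, with 8 of 9 counted lower in AG-haESCs. The part of either in the replication genes was not tested.

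Within AG-haESCs the lines differed by the chromosome of the gene. Over all 687 genes of chromosome 8, A129-2 exceeded the mean of the AOS lines by a median of 0.91 on the log2(TPM + 1) scale once the genes of other autosomes were centred on 0. The set has 5 genes on that chromosome, Mcm5, Cdt1, Gins2, Gins3 and Gins4, and A129-2 was above both AOS lines for all 5. Their differences were 0.87 for Mcm5, 0.36 for Cdt1, 0.20 for Gins2, 0.60 for Gins3 and 1.22 for Gins4, with a median of 0.60. Mcm5 had 350.5 TPM in A129-2, against 157 and 187 TPM in AOS-14 and AOS-16. Gins4 had 137 TPM in A129-2, against 47.5 and 56.1 TPM in the AOS lines. Of all chromosome 8 genes 81.2% lay above both AOS lines, so the set's share is near that of its chromosome.

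The 33 genes on other autosomes stood on the other side. Their median was -0.25. After the same centring, A129-2 lay below both AOS lines for 22 (66.7%) and above both for 5 (15.2%). The shares of all 11391 genes of other autosomes were 35.6% and 36.7%. Without centring, A129-2 had the lowest TPM of the lines for 15 of the 33 genes, and the share of all genes is not given here. The lowest was Rrm2 at -1.03, with 195 TPM in A129-2, against 367 and 346 TPM in the AOS lines. The highest was Slbp at 0.77, with 163 TPM in A129-2, against 82.5 and 87.3 TPM in the AOS lines. The summed proliferation markers were also lowest in A129-2, at 171 FPKM, against 301.4 and 232 FPKM in AOS-14 and AOS-16, and their part in this was not tested. No test was run between the lines, which have 1 library each.

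**Figure D4:**
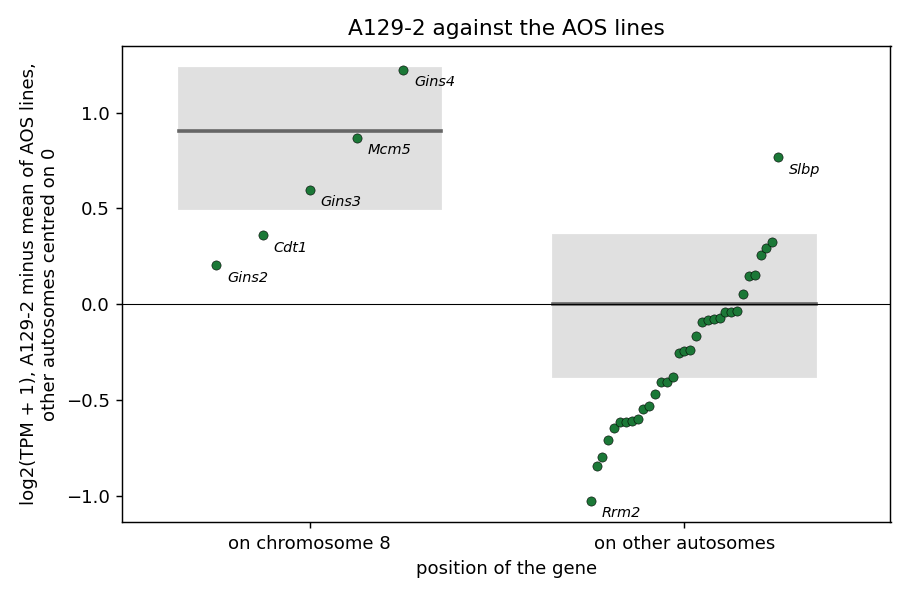
Difference of log2(TPM + 1) between A129-2 and the mean of the AOS lines for the 5 genes on chromosome 8 and the 33 on other autosomes, with grey boxes for the middle range and median of all genes there. The chromosome 8 genes lie at 0.20 or above, and the other genes run from -1.03 (Rrm2) to 0.77 (Slbp).

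The wider replication pathway, a list of 70 further genes of which 69 were measured, holds origin, chromatin and nucleotide genes and their cell cycle regulators. By limma 39 of the 69 (56.5%) were higher in AG-haESCs than in round sperm, against 22.8% of all genes tested, and 7 (10.1%) were lower, against 39.1%. The other 23 were not called, and the median difference was 1.76. Without AOS-14, and likewise without AOS-16, 25 of the 69 were higher, against 15.6% and 16.7% of all genes tested. Lower calls numbered 4 without A129-2, against 37.7% of all genes, and 3 with quantile normalization, against 28.7%. Dut, which keeps uracil out of DNA, averaged 85.1 ± 22.5 FPKM in AG-haESCs, against 2.85 FPKM in round sperm (4.45, limma adjusted p = 0.00575). Ctps, CTP synthase, averaged 63.2 ± 5.79 FPKM in AG-haESCs, against 1.98 FPKM in round sperm (4.43, limma adjusted p = 0.000983). Shmt2, a mitochondrial enzyme of one-carbon supply, differed by 4.96 (limma adjusted p = 0.0155) and lost its call without AOS-14. Dctd, deoxycytidylate deaminase, differed by 4.30 (limma adjusted p = 0.015) and lost its call without AOS-14 or AOS-16. Rnaseh2b, a subunit of the RNase that removes RNA from DNA, differed by 3.98 (limma adjusted p = 0.00376).

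The 5 lowest were Rnaseh2a, Rbl2, Chaf1a, Pole3 and Pold3. Rnaseh2a, the catalytic subunit of the same RNase, had 33.7, 25.1 and 19.4 FPKM in the AG-haESC lines, against 621 FPKM in round sperm (-4.56, limma adjusted p = 0.00561). Subunits of 1 enzyme thus lay at opposite ends of the list. Rbl2, the pocket protein p130 of resting cells, averaged 2.998 ± 0.301 FPKM in AG-haESCs, against 50.9 FPKM in round sperm (-3.70, limma adjusted p = 0.00114). Chaf1a, the large subunit of a histone chaperone, averaged 24.5 ± 4.64 FPKM in AG-haESCs, against 200.7 FPKM in round sperm (-3.001, limma adjusted p = 0.00584). These 3 stayed called lower in AG-haESCs after rescaling and with quantile normalization. Pole3 and Pold3, small polymerase subunits, differed by -2.54 and -2.12 (limma adjusted p = 0.0161 and 0.017), and lost their calls with quantile normalization. Pole3 also lost its call without A129-2, and Pold3 without AOS-14 or AOS-16.

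The E2F genes, chosen for mention after their values were seen, differed by member in round sperm. E2f1, an activator, averaged 28.6 ± 10.0 FPKM in AG-haESCs, against 0.976 FPKM in round sperm, and was called higher at 3.84 (limma adjusted p = 0.0152). That call was lost without AOS-14 and without AOS-16. E2f2, E2f3 and E2f6 were also called higher, at 1.33, 2.67 and 2.03 (limma adjusted p = 0.0243, 0.007 and 0.0157). Of these, only E2f3 kept its call with each line left out. E2f7 and E2f8 were not called as deposited, and E2f7 was called higher after rescaling and with quantile normalization. E2f4, known mainly as a repressor with the pocket proteins, had 121.7, 47.4 and 54.0 FPKM in the AG-haESC lines, against 47.4 FPKM in round sperm, and was not called. E2f5, a relative of E2f4, had 29.0 to 39.3 FPKM in AG-haESCs, against 39.4 FPKM in round sperm, and 14.9 and 15.4 FPKM in ESC XX. Against ESC XX, E2f5 was the 1 gene of the wider list counted higher in AG-haESCs (1.02), or 1.45% of the 69, against 7.37% of all genes kept. Ticrr, which helps to fire origins, was counted lower (-2.04), as were Top2a, the topoisomerase of mitosis (-1.46), and Fbxo5, the inhibitor of the anaphase-promoting complex (-1.52). These 3 are 4.35% of the 69, against 8.28% of all genes kept. Top2a is also one of the proliferation markers.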

How the data were processed

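Messenger RNA was sequenced in 6 libraries from polyA RNA with a stranded KAPA kit, per the labels' protocols. The authors aligned reads with TopHat2 2.0.13 and estimated expression with Cuffdiff 2.2.1 on mm9, per the submitters' processing notes. Whether counting used strand, like other settings, is not given in the sources used here. Deposited values were taken as FPKM. The headers of the ESC XX tables name that unit, and the header of the table with AG-haESCs and round sperm does not, so there it rests on the tool named and the size of the values.

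AG-haESCs and round sperm were compared on log2(FPKM + 1) by limma 3.58.1 (R 4.3.3; trend on) over genes at 1 FPKM or more in at least 1 of the 4 libraries. A call needed a two-sided Benjamini-Hochberg adjusted p under 0.05 and a log2 difference of at least 1. The fit has 2 residual degrees of freedom. The method was also run on simulated data. There all 4 libraries were drawn with the same spread, so the assumption that round sperm varies like the lines was not tested. Changes were put only into genes of higher level, and unequal library totals were not simulated. ESC XX came in separate tables, so comparisons with it use TPM, the median difference of genes at 1 or more in some library removed (-0.10 for AG-haESCs and -0.50 for round sperm), and no test. Depth was estimated from the whole-fragment steps of low FPKM values; no gene's count was recovered. Median chi-square values, relative to counting noise alone, were 1.13 to 1.37 for the ESC XX pair and 5.86 to 51.5 for AG-haESC pairs. They are a squared measure, taken in genes of 10 to 100 and of 100 to 1000 estimated fragments. Overlaps, chromosomes and promoters were looked up by symbol on GRCm38, not mm9, and a chromosome was found for 99.5% of symbols.

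All 39 genes are named. Of the wider list, the 5 highest and 5 lowest called differences and all genes counted against ESC XX are named. Genes and lists were chosen with earlier results of these data known. Other pseudocounts, filters, scalings and left-out libraries were tried.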

Additional observations from a re-analysis of the deposited data

How the results depend on the processing

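The genes called lower in AG-haESCs than in round sperm went to 1 with rescaling, 1 with rescaling that left genes under 200 nt out, and 0 with quantile normalization, and leaving out 1 AG-haESC line gave 0 to 3. The median difference of the 39 genes became 3.08, 3.06 and 2.69 under these 3 scalings. The wider list had 3 lower calls with quantile normalization and 4 to 6 with 1 line left out, and 25 to 38 higher calls with 1 line left out. The median against ESC XX became 0.026 with FPKM as deposited and no median removed. Genes uncalled as deposited changed sign under the 3 scalings in turn, Mcm7 to 0.39, 0.37 and 1.09 (at 1.09 called higher in AG-haESCs), Gins1 to 0.75, 0.72 and 0.84, Gins4 to 0.28, 0.25 and 0.71, Rfc4 to 0.27, 0.24 and 0.57, Prim2 to 0.99, 0.96 and 0.91, Pole2 to 0.95, 0.93 and 0.82, Rrm1 to 0.13, 0.10 and 0.54, and Slbp to 0.87, 0.84 and 1.31. Under quantile normalization Rfc1 became 0.19 and Rpa1 0.52. Pole spanned -0.0017 to 0.35 with 1 line left out. The cause was not tested. The counts against ESC XX stayed at 0 in each direction under every alternative run. No paired analysis was possible because the groups compared share fewer than 2 replicate numbers from the labels. The titles of the AG-haESC libraries give a line name and no replicate number, so no line can be paired with an ESC XX library. A single round sperm library, a depth of 9.10 (in units of 1e6 fragments) in A129-2 and round sperm values of a few fragments limit these results.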
